A study of Mus musculus with 20 samples.

Results

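The nuclear genes of the mitochondrial respiratory chain and ATP synthase were followed in 2 regions of the mouse cortex during experimental autoimmune encephalomyelitis (EAE), an immune attack on myelin used as a model of multiple sclerosis. Members were chosen by gene symbol alone: symbols that start with Nduf, Uqcr or Atp5, Sdha to Sdhd, and Cox4 to Cox8 with their suffixes. The rule took 90 of the 18194 genes measured. By symbol alone, 36 were grouped under complex I, 4 under complex II, 8 under complex III, 17 under complex IV and 17 under complex V. A symbol need not name the complex that holds the protein. The other 8 carry Ndufaf symbols and encode assembly factors of complex I, which are not subunits, and they are described apart from the 82 subunit genes. Each gene is represented by the brightest of its probe sets. No expression difference entered this rule, although the members were chosen with earlier results of these data known.

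The samples were motor cortex and sensory cortex of the same 10 female C57Bl6 mice, 6 with EAE and 4 healthy. EAE was induced at 8 to 12 weeks of age with the myelin oligodendrocyte glycoprotein peptide MOG35-55, 100 µg in the rear flanks and 50 µg at the tail base, with 400 ng of pertussis toxin on days 0 and 3. Tissue was taken at day 18 to 21, or at day 21 by the treatment protocol, from mice whose average clinical grade was 2.5 to 3.5. Healthy mice of the same age were caged with them. The labels mention no sham treatment, so the EAE groups differ from the healthy groups by the peptide, the toxin and the disease together. The mice formed 2 cohorts that each hold both conditions, and each array holds 1 region of 1 mouse.

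Complexes I to IV pass electrons from NADH and succinate to oxygen. Complexes I, III and IV pump protons out of the mitochondrial matrix, and complex V uses the return of those protons to make ATP. Most subunits are encoded in the nucleus and a few in mitochondrial DNA, and assembly factors, copper chaperones and haem enzymes are needed to build the complexes. Neurons draw most of their ATP from this chain, and several complex IV subunits exist as a ubiquitous form and a second form best known from heart, skeletal muscle, lung or testis.

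The 20 arrays had medians of 8.22 to 8.32 on the log2 scale, and arrays of 1 group correlated at 0.988 to 0.998 over genes. The probe sets of these genes are bright: 56 of 90 averaged above 13, against 4.18% of all genes, and the highest value on any array was 15.1, so a change in the brightest ones may be compressed. The 6 dimmest members, Cox7b2, Ndufb4, Cox4i2, Cox8b, Cox6b2 and Cox7a1, averaged below the median probe set at 8.27. As a check of the tissue label, the mean signal of 10 neuronal markers was between 13.2 and 13.3 on the arrays. Markers of other cells moved with EAE (limma adjusted p under 0.05), in motor and in sensory cortex as follows. Of 6 oligodendrocyte markers 2 and 1 fell, with Mag in both. Of 7 markers of microglia and macrophages 2 and 1 fell, with P2ry12 in both, while Aif1 and Cd68 had estimates above 0 that did not pass. Of 5 endothelial markers 0 and 1 fell. Of 7 astrocyte markers Gjb6 rose in both regions, and Gfap, at 0.65 and 0.97, did not pass. Of 5 markers of neutrophils and monocytes 3 and 1 rose, with S100a8 in both, and of 6 T cell markers 1 and 0 rose. None of the 10 neuronal markers was called in either region, but 1, Sst, was called lower when the 2 arrays of each mouse were averaged. Because whole tissue was measured, fewer cells of a type and less RNA per cell cannot be told apart, and the part of these shifts in the values below was not tested.

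In motor cortex, none of the 90 respiratory chain genes differed between EAE and healthy mice after adjustment over all genes (limma, Benjamini-Hochberg adjusted p under 0.05), where 2.25% of all genes did. At an unadjusted p under 0.05 there were 2 members, Cox7a1 and Atp5e, both with lower values in EAE. That is 2.22% of the members, against 15.9% of all genes in either direction and 10.3% with lower values. The median change of the members was -0.022 log2 units, beside -0.0077 for all genes, and the members' changes ran from -0.42 for Cox7a1 to 0.10 for Cox8b. In 20 of 90 members, or 22.2%, the estimate was above 0, against 46.9% of all genes.

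In sensory cortex, again 0 of 90 members passed, beside 2.41% of all genes, and 0 had an unadjusted p under 0.05, beside 18.5%. The median change was -0.010, against 0.00078 for all genes, and the range was -0.18 to 0.17. When the 2 arrays of each mouse were averaged, 7.87% of all genes were called and 0 of 90 members. Of the members, 4 had an unadjusted p under 0.05 (4.44%, against 25.9% of all genes): Cox8b with a higher estimate (10.2% of all genes), and Cox7a1, Atp5e and Ndufaf6 with lower ones (15.8% of all genes). For a difference of the EAE effect between the regions, no member and no other gene was called after adjustment (0% of all genes). At an unadjusted p under 0.05 there were 0 members and 2.32% of all genes. In no member were all EAE mice above or all below all healthy mice, in motor cortex, in sensory cortex or in their average. Among all genes such separation was seen, higher and lower, in 1.48% and 4.19% in motor cortex, 2.45% and 4.04% in sensory cortex, and 3.22% and 6.93% for the average.

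**Figure D1:**
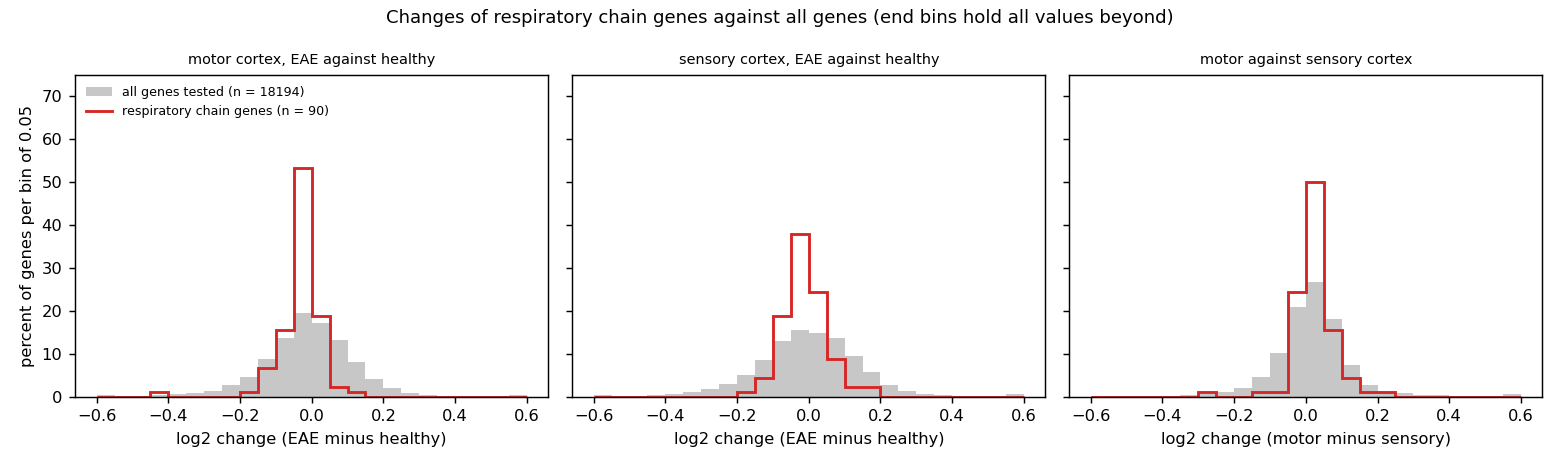
Distribution of log2 changes (x axis, bins of 0.05) for the 90 respiratory chain genes (red outline) and all 18194 genes (grey), as a percent of genes per bin, for EAE minus healthy in motor cortex and in sensory cortex and, on the right, for motor minus sensory cortex; the end bins hold all values beyond. The members gather near 0, with a median absolute change of 0.030 in motor cortex and 0.035 in sensory cortex, beside 0.072 and 0.085 for all genes. All genes are not matched to the members in signal.

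A missed threshold does not show that levels were the same, so the 95% intervals of the changes were set against fixed sizes. For the average of both regions, the interval lay within a 1.2-fold change in either direction for 86 of 90 members (95.6%) and for 71.9% of all genes. The 4 members whose interval reached further were Cox7a1, Cox6b2, Cox7b2 and Cox8c. In motor cortex the interval of 82 members (91.1%) lay within 1.2-fold, and in sensory cortex that of 80 (88.9%), beside 61.6% and 52.1% of all genes. For the difference of the EAE effect between regions it did so for 82 members, beside 48.5% of all genes, so that comparison was less precise over all genes. All genes are not matched to the members in signal, and bright genes varied less within groups than all genes did. Whether the members' shares differ from those of equally bright genes was not tested. A 1.5-fold change lay outside the interval of every member in sensory cortex and in the average, and of every member but Cox7a1 in motor cortex. These intervals are for the array signal, which understates changes of RNA where probe sets near the top of the range are compressed. Among the 59 member probe sets with a mean between 9 and 13, away from both ends of the range, 0 were called in any of the 3 comparisons of EAE with healthy tissue. Over all 34958 probe sets, 1.13% were called in motor cortex, 1.17% in sensory cortex and 4.94% in the average. Among those in the same signal range the shares were 1.49%, 1.82% and 6.95%. A count of 0 of 59 is thus near the background in each region. At an unadjusted p under 0.05 the 59 held 3, 4 and 7, where all probe sets in the same signal range gave 15.6%, 24.3% and 28.0%.

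**Figure D2:**
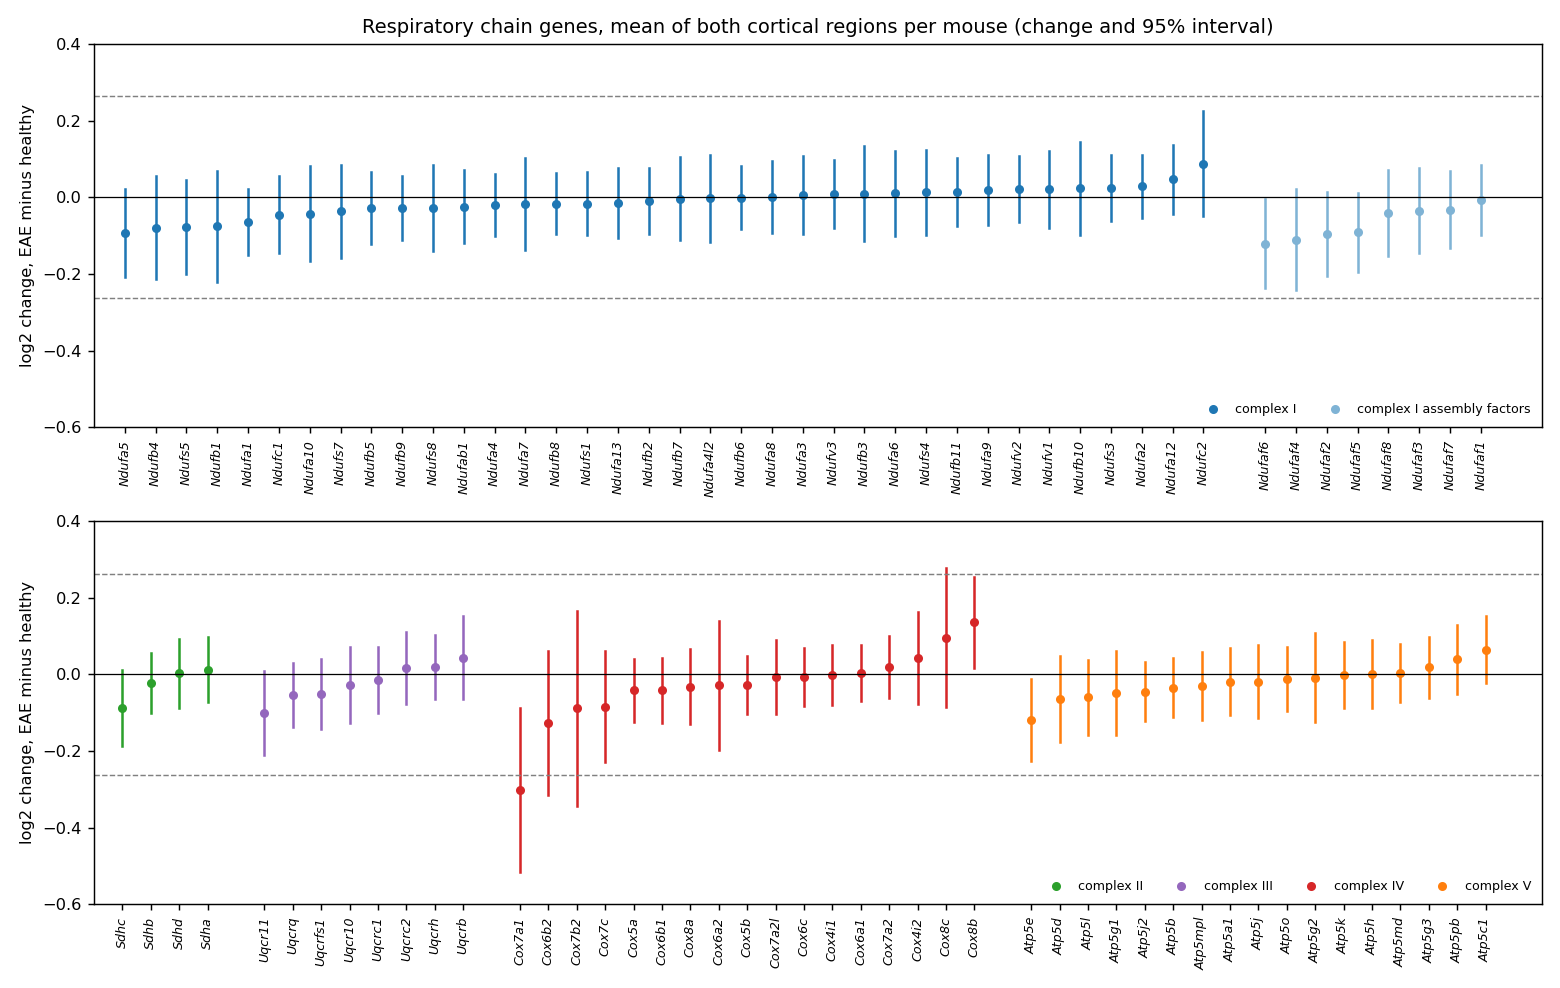
Log2 change between EAE and healthy mice with its 95% interval for each of the 90 genes, after averaging the 2 regions of each mouse, ordered by size within each complex; dashed lines mark a 1.2-fold change. Of the 90 intervals, 86 lie between the dashed lines, and Cox7a1 has the lowest estimate at -0.30.

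Complex I, the NADH dehydrogenase, had a median change of -0.0065 over the 36 genes grouped under it for both regions together, with 15 estimates above 0. Ndufs1, the largest subunit, which carries iron-sulphur clusters, had 12.50 ± 0.040 (SD, n = 4) in healthy and 12.50 ± 0.074 (SD, n = 6) in EAE motor cortex. In sensory cortex it had 12.47 ± 0.020 and 12.45 ± 0.046. Its change was -0.016, with an interval of -0.099 to 0.067 and the groups overlapped in both regions. Ndufv1, which binds NADH, changed by 0.021 (-0.080 to 0.12). The complex I subunits with the smallest p were Ndufa5 and Ndufa1, both accessory subunits, at -0.093 ± 0.052 (SE) and -0.065, and neither passed (Ndufa5, limma adjusted p = 0.288). The other Ndufa5 probe set gave 0.028, the opposite sign. Ndufc1, a small accessory subunit, had a change of -0.10 ± 0.055 (SE) in motor cortex and 0.0095 in sensory cortex, and neither the motor value nor the difference between regions passed (limma adjusted p = 0.407 and 1.00). Ndufa4l2, the second form of Ndufa4 known as a hypoxia-inducible gene and placed here by its symbol only, changed by -0.0024 (-0.12 to 0.11).

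The 8 complex I assembly factors all had estimates below 0, in motor cortex, in sensory cortex and in the average, with medians of -0.059, -0.073 and -0.066. None passed: the smallest limma adjusted p in the 3 comparisons was 0.528, 0.348 and 0.179. Ndufaf6 had 9.35 to 9.53 in the 4 healthy and 9.18 to 9.50 in the 6 EAE motor samples, and 9.31 to 9.50 and 9.02 to 9.47 in sensory cortex. The ranges overlapped in both regions, and its average change was -0.12 ± 0.053 (SE). Ndufaf5, a methyltransferase-like factor, was at -0.091 ± 0.047 (SE). Ndufaf4 had -0.14 ± 0.074 (SE) in sensory cortex (limma adjusted p = 0.348), but 0.0024 within cohort 1 alone. These genes moved together from array to array, with a median pairwise correlation of 0.611 over the 20 arrays after group means were removed, so their shared sign is not 8 separate observations.

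Complex II, succinate dehydrogenase, is wholly nuclear-encoded and also a step of the citric acid cycle. Sdha, its flavoprotein, changed by 0.012 (-0.073 to 0.097), and Sdhb, its iron-sulphur subunit, by -0.022 (-0.10 to 0.056). Sdhc, a membrane anchor, had the smallest p of the 4, with a change of -0.088 ± 0.045 (SE; limma adjusted p = 0.250). Its second probe set gave -0.024.

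Complex III, the cytochrome bc1 complex, had a median change of -0.021. Uqcrc1, a core protein, changed by -0.015 (-0.10 to 0.071), and Uqcrfs1, the Rieske iron-sulphur protein, by -0.050 (-0.14 to 0.041). The small subunits Uqcr11 and Uqcrq had the smallest p, at -0.10 ± 0.050 (SE) and -0.054. For Uqcr11 the healthy motor values were 13.37 to 13.45 and the EAE values 13.07 to 13.47, so the EAE range enclosed the healthy one (limma adjusted p = 0.226 for the average).

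Complex IV, cytochrome c oxidase, held the widest changes, and they lay in genes of its alternative subunits. The ubiquitous Cox4i1 had 14.36 ± 0.016 (SD, n = 4) in healthy and 14.34 ± 0.045 (SD, n = 6) in EAE motor cortex, and changed by -0.0021 (-0.080 to 0.076) over both regions. Cox5a, a ubiquitous matrix-side subunit, changed by -0.042 (-0.12 to 0.041). Cox4i2, the lung form of subunit 4, had -0.031 in motor and 0.12 ± 0.071 (SE) in sensory cortex, and the difference of -0.15 ± 0.087 (SE) did not pass (limma adjusted p = 1.00). Cox8b, the muscle form of subunit 8, ran from 7.42 to 7.61 in healthy and 7.34 to 7.84 in EAE motor cortex, and from 7.49 to 7.64 and 7.50 to 8.06 in sensory cortex. Its average change of 0.14 ± 0.054 (SE) did not pass (limma adjusted p = 0.142), and its signal lies below the median probe set.

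Cox7a1, the heart and skeletal muscle form of subunit 7a, had the lowest estimate of all members. In motor cortex the 4 healthy mice had 8.47, 8.47, 8.40 and 8.61, and the 6 EAE mice ran from 7.79 through a median of 8.01 to 8.42. In sensory cortex the healthy mice had 8.12, 8.03, 8.01 and 8.29, and the EAE mice ran from 7.64 through 7.96 to 8.11. EAE mouse 3, at 8.42 in motor cortex, lay above the lowest healthy mouse, and the other 5 EAE mice lay below all healthy mice there; in sensory cortex the groups overlapped more widely. The change was -0.42 ± 0.12 (SE) in motor cortex, with an interval of -0.68 to -0.16 and a limma adjusted p of 0.0992. In sensory cortex it was -0.18 ± 0.098 (SE; limma adjusted p = 0.348), and for the average -0.30 ± 0.097 (SE; limma adjusted p = 0.0825). Without EAE mouse 3 the gene was called lower in motor cortex (-0.51, limma adjusted p = 0.0286) and in the average (-0.36, limma adjusted p = 0.0339). Cox7a1 has 1 probe set, so no second measurement of it exists on these arrays. Of 7 skeletal muscle markers 1, Ckm, rose in the average by 0.19 (limma adjusted p = 0.0289) and 0 were called lower. Acta1 among them had -0.18 in motor and -0.26 in sensory cortex, which did not pass (limma adjusted p = 0.394 and 0.114). Of 9 mural cell markers, Rgs5 and Vtn fell in the average by 0.19 and 0.20, and 0 were called in motor cortex; the mean signal of the 9 was 9.69 to 9.82 on healthy and 9.59 to 9.70 on EAE motor arrays. The part of mural cells in the Cox7a1 values was not tested.

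Complex V, ATP synthase, had a median change of -0.019. The catalytic core subunits Atp5a1 and Atp5b changed by -0.019 (-0.11 to 0.068) and -0.034 (-0.11 to 0.041). Atp5c1, the rotating central stalk, changed by 0.064 ± 0.039 (SE; limma adjusted p = 0.329). Atp5e, the small epsilon subunit of the same stalk, had 12.81, 12.85, 12.86 and 13.04 in healthy motor cortex, and 12.55 to 12.90 with a median of 12.74 in EAE. EAE mice 4 and 6, at 12.90 and 12.82, lay above the lowest healthy mouse, and the groups overlapped in sensory cortex too. The motor change was -0.16 ± 0.068 (SE; limma adjusted p = 0.290), and the average change -0.12 ± 0.049 (SE; limma adjusted p = 0.153). Atp5pb, of the peripheral stalk, had 0.095 ± 0.049 (SE; limma adjusted p = 0.336) in sensory cortex, and its dimmer probe set gave -0.042.

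The shared offset of the members was largest in 1 animal. The median member on each array was set against the healthy mean of its region. EAE mouse 2 was lowest in both regions, at -0.14 in motor cortex with 84 of 90 members below the healthy mean, and at -0.080 in sensory cortex with 82 below. Its all-gene medians were -0.049 and -0.030. The other EAE motor arrays ran from -0.041 to 0.060 and the healthy ones from -0.026 to 0.036, so those ranges overlapped. In sensory cortex healthy mouse 2, at -0.069, came close to EAE mouse 2. Without EAE mouse 2 the median change of the members was 0.0008 in motor cortex, 0.0025 in sensory cortex and -0.0005 for the average. Other animals moved it too: without healthy mouse 1 it was 0.0072 in sensory cortex, and without healthy mice 1 and 4 together 0.0094 for the average. Over the 10 fits that left out 1 mouse it ran from -0.035 to 0.0008, from -0.029 to 0.0072 and from -0.027 to -0.0005.

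**Figure D3:**
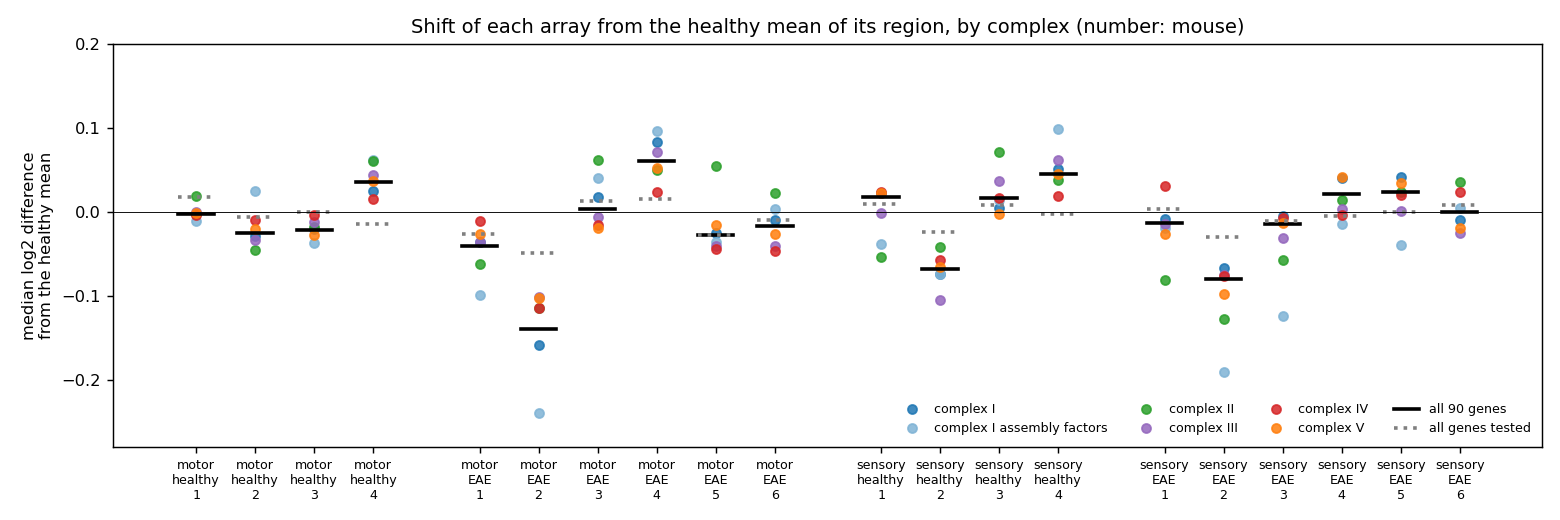
Median log2 difference of each complex (coloured points), of all 90 genes (black bars) and of all genes tested (grey dotted bars) from the healthy mean of the same region, for each of the 20 arrays. EAE mouse 2 lies lowest in both regions, at -0.14 and -0.080, and EAE mouse 4 highest in motor cortex, at 0.060.

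Members moved together between arrays within groups. After group means were removed, the median correlation over the 4005 pairs of members was 0.459 across the 20 arrays, and 84.6% of pairs were above 0. Members with all genes gave 0.065, and pairs among the 1820 brightest genes gave 0.035. By complex the median was 0.507 in complex I, 0.613 in II, 0.617 in III, 0.251 in IV and 0.447 in V. These are descriptions over arrays that share mice and processing, with no test. The median SD of the members was 0.050 in healthy and 0.094 in EAE motor cortex, beside 0.084 and 0.12 for all genes. For the 1820 brightest genes it was 0.054 and 0.076, so in EAE motor cortex the members varied more than bright genes did. In sensory cortex the median SD of the members was 0.069 in healthy and 0.065 in EAE mice. The 1820 brightest genes had 0.064 and 0.066 there, and all genes 0.10 and 0.12.

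Motor and sensory cortex of the same mice differed in 3 members, with the mouse as a block: Cox7a1 and Atp5g1 were higher in motor cortex and Cox6a2 was lower (3 of 90, where 13.2% of all genes were called, 7.67% higher and 5.56% lower). At an unadjusted p under 0.05 there were 12 members, 10 higher and 2 lower, or 13.3% against 25.2% of all genes, of which 14.9% higher and 10.3% lower. The median difference of the members was 0.024, beside 0.017 for all genes, and 65 of 90 were above 0 (72.2%, against 59.1%). In 3 members, Atp5g1, Cox6b1 and Uqcrc2, motor cortex was higher in every mouse (3.33%, against 4.42% of all genes), and in 0 members was it lower in every mouse (3.25% of all genes). For 87 of 90 members the interval lay within 1.2-fold, the exceptions being Cox6a2, Cox7a1 and Cox7b2.

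Cox6a2, the muscle form of subunit 6a, had the smallest p. The healthy mice had 10.61, 10.55, 10.42 and 10.56 in motor cortex and 10.98, 10.73, 10.73 and 10.77 in sensory cortex. The EAE mice ran from 10.27 through 10.51 to 10.67 in motor and from 10.48 through 10.82 to 11.00 in sensory cortex. Sensory cortex was higher in 9 of 10 mice, and EAE mouse 6 had 10.67 in both regions. The difference, motor minus sensory, was -0.27 ± 0.041 (SE; limma adjusted p = 0.000568), and it was -0.27 among healthy mice alone (limma adjusted p = 0.0134) and -0.27 among EAE mice alone (limma adjusted p = 0.0485). A second Cox6a2 probe set gave -0.20 ± 0.037 (SE; limma adjusted p = 0.00392 over all probe sets, of which 9.83% were called). The EAE changes of Cox6a2 were -0.030 in motor and -0.027 in sensory cortex. Its ubiquitous counterpart Cox6a1 had a regional difference of -0.014. Of 10 neuronal markers 2, Pvalb and Slc32a1, were called lower in motor cortex and 1, Sst, was called higher. Pvalb, a marker of a class of inhibitory neurons, had a difference of -0.36 ± 0.046 (SE; limma adjusted p = 0.000156). Sst, also a marker of inhibitory neurons, had healthy means of 13.29 in motor and 13.11 in sensory cortex. The part of these neurons in the Cox6a2 difference was not tested.

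Cox7a1 was higher in motor cortex in 8 of 10 mice. The 4 healthy mice had motor minus sensory differences of 0.35, 0.44, 0.39 and 0.32, while the EAE mice ran from -0.20 to 0.38. The difference was 0.23 ± 0.058 (SE; limma adjusted p = 0.0158) over all mice. It was 0.37 ± 0.052 (SE; limma adjusted p = 0.00108) among healthy mice alone and 0.14 ± 0.077 (SE; limma adjusted p = 0.464) among EAE mice alone. The test of the change in this difference with EAE gave -0.23 ± 0.11 (SE) and a limma adjusted p of 1.00, so a different regional gap in EAE was not established. Without the 2 mice that have an array of the second processing day, healthy mice 1 and 4, the regional call was lost (0.21, limma adjusted p = 0.0955). Of 9 mural cell markers, 5 were called lower in motor cortex and 0 higher, beside 5.56% and 7.67% of all genes. Among the 5 were Acta2 at -0.23 and Tagln at -0.24. The part of mural cells in the regional difference of Cox7a1 was not tested.

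Atp5g1 encodes the c subunit of the proton-driven ring, as do Atp5g2 and Atp5g3. The healthy mice had 13.18, 13.05, 13.15 and 13.12 in motor cortex and 13.08, 12.96, 13.06 and 13.05 in sensory cortex. The EAE mice ran from 12.90 through 13.10 to 13.27 and from 12.85 through 12.99 to 13.03. Motor cortex was higher in all 10 mice, although the ranges of the regions overlapped. The difference was 0.11 ± 0.028 (SE; limma adjusted p = 0.0168), and 0.024 and 0.034 for Atp5g2 and Atp5g3, which were not called. A second, dimmer Atp5g1 probe set gave 0.034 ± 0.071 (SE), and the Atp5g1 call was lost with the mean of both probe sets (0.073, limma adjusted p = 0.344) and without healthy mice 1 and 4 together (0.12, limma adjusted p = 0.0664). Sdhc, at -0.10 ± 0.032 (SE; limma adjusted p = 0.0549), was next in order in the negative direction and did not pass, and its second probe set gave 0.0034.

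**Figure D4:**
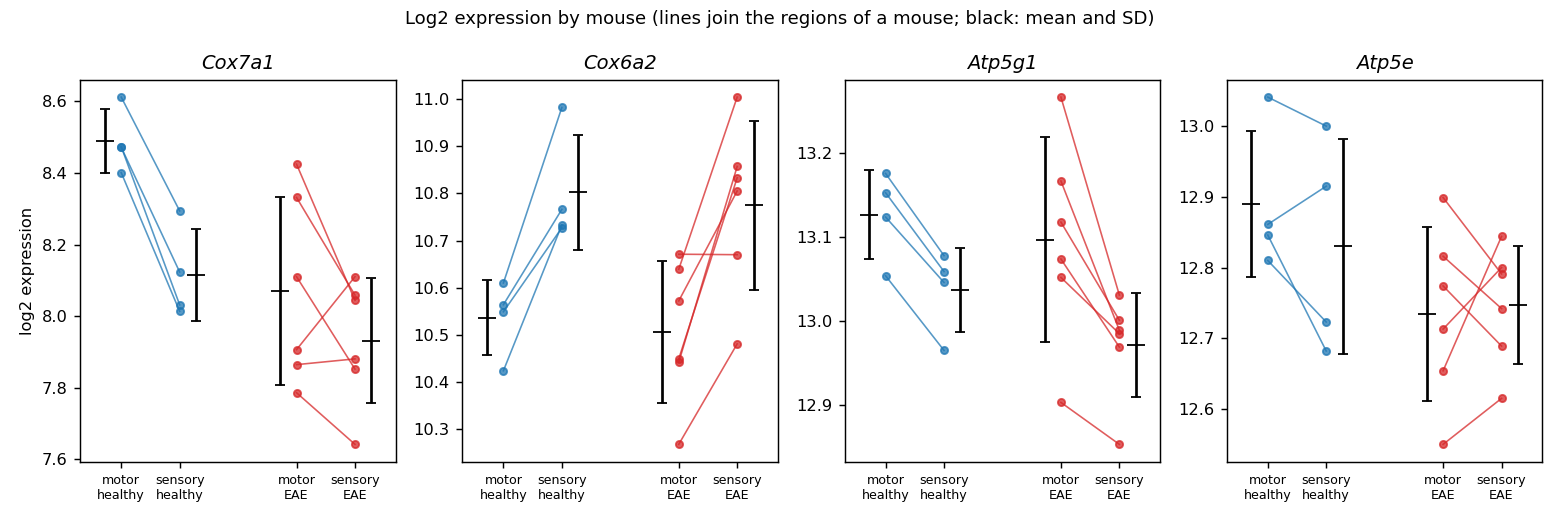
Log2 expression of Cox7a1, Cox6a2, Atp5g1 and Atp5e in each mouse, with lines joining the motor and sensory arrays of a mouse (blue healthy, n = 4; red EAE, n = 6) and black marks for the mean and SD. Cox6a2 is higher in sensory cortex in 9 of 10 mice and Atp5g1 higher in motor cortex in all 10, while the healthy and EAE ranges overlap.

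The 250 bases before the start of 4 of these genes are shown because Cox7a1 and Atp5g1 differed between regions while the ubiquitous forms Cox7a2 and Cox6a1 were not called. They are from RefSeq, GRCm38.p6, on the strand of the gene, at chr7:30183921-30184170 (+) for Cox7a1, chr9:79759854-79760103 (-) for Cox7a2, chr5:115348959-115349208 (-) for Cox6a1 and chr11:96075632-96075881 (-) for Atp5g1. Capitals mark the NRF1 core, ETS core, YY1, GC box, TATA and E box CACGTG motifs, on either strand. The other motifs described below were not marked in these stretches. Cox6a1 is the counterpart of Cox6a2, for which no sequence before the start was held, and the stretches of Atp5g2 and Atp5g3 are not shown.
Cox7a1: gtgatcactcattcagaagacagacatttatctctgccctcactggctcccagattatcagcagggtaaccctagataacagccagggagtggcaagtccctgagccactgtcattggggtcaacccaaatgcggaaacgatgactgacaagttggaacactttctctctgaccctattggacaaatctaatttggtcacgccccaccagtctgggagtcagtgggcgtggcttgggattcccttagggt
Cox7a2: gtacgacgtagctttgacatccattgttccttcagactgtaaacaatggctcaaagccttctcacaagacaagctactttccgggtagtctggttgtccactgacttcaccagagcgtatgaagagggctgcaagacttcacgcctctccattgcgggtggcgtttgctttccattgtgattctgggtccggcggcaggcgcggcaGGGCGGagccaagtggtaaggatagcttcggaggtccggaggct
Cox6a1: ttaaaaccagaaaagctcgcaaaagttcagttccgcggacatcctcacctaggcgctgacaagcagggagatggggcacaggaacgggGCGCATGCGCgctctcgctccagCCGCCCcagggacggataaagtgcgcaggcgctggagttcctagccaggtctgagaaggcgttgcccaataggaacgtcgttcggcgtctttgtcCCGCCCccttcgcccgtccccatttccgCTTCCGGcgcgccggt
Atp5g1: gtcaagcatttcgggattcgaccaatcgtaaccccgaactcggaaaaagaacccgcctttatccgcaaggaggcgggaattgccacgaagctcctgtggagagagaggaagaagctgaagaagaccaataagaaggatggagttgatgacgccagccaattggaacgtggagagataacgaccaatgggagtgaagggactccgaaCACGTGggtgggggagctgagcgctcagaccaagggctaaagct
The Cox7a1 stretch held 0 of the marked motifs. The Cox6a1 stretch held the long NRF1 palindrome, GC boxes and an ETS core, the Cox7a2 stretch 1 GC box, and the Atp5g1 stretch the E box CACGTG.

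NRF1, ETS-family and YY1 motifs are known from promoters of respiratory chain genes. A window of 300 bases (250 before to 50 after the start) was held for 74 of 90 members and for 14453 of the genes tested, and motifs were searched on both strands. The NRF1 core GCATGCGC was in 11 members (14.9%), against 4.68% of genes tested and 3.05% of all 27025 genes with a window. The longer NRF1 palindrome, which contains this core, was in 6 (8.11%, against 1.75% and 1.07%). The ETS core CCGGAAG was in 19 (25.7%, against 15.0% and 9.93%), and the YY1 motif AAGATGGCG in 7 (9.46%, against 2.53% and 1.64%). These motifs were thus more frequent in the members' windows than in those of the genes tested, while the GC box GGGCGG was less so (47.3%, against 57.3% and 38.2%). The TATA motif TATAAA was in 10.8% against 11.5% and 15.7%, the CRE TGACGTCA in 4.05% against 2.92% and 2.03%, and the E box CACGTG in 8.11% against 10.2% and 8.09%. The E box CAGCTG was in 8.11% against 18.8% and 18.3%. For the MEF2 and CArG motifs, known from muscle genes, only a narrow pattern of each was searched. These patterns were in 0 members, and in 0.45% and 0.055% of genes tested. Other forms of these motifs were not searched, so their absence from the members' windows was not shown. Median GC content was 58.8% in the members' windows and 58.7% in those of genes tested. The counts describe letters in these windows, with no test and no bearing on whether a factor binds.

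Genes that build or feed the chain were counted in the same fits. Of 36 measured genes for assembly and for copper or haem delivery, 1 fell in EAE and 0 rose, in motor cortex, in sensory cortex and in the average. It was Sco1, a copper chaperone of complex IV. Among all genes 2.25%, 2.41% and 7.87% were called in the same order, in either direction. Sco1 was 8.44 ± 0.10 (SD, n = 4) in healthy and 8.15 ± 0.10 (SD, n = 6) in EAE motor cortex, and 8.54 ± 0.032 and 8.03 ± 0.20 in sensory cortex. Its signal is thus close to the median probe set at 8.27, with the EAE means below it. In sensory cortex the EAE mice ran from 7.66 to 8.25 and the healthy mice from 8.50 to 8.57, with no overlap. Such separation with lower values in EAE was seen in 4.04% of all genes there. In motor cortex the EAE mice ran from 8.08 to 8.36 and the healthy mice from 8.29 to 8.51, so the ranges overlapped. It changed by -0.29 ± 0.063 (SE; limma adjusted p = 0.0362) in motor cortex, -0.52 ± 0.097 (SE; limma adjusted p = 0.0294) in sensory cortex and -0.40 ± 0.047 (SE; limma adjusted p = 0.00224) for the average. The motor call was lost in 8 and the sensory call in 7 of the 10 fits that each left out 1 mouse, with the sign unchanged. The average was called in all 10, but not without healthy mice 1 and 4 together (-0.43, limma adjusted p = 0.0641). The medians of the 36 genes were -0.049, -0.045 and -0.027, beside -0.0077, 0.00078 and 0.00022 for all genes. Between regions, 3 of the 36 were higher in motor cortex, Sco2, Pet100 and Sdhaf4, and 1 was lower, Atpaf1, beside 7.67% and 5.56% of all genes. The Pet100 call was lost in 6 of the 10 fits that left out 1 mouse. The Atpaf1 difference of -0.17 was not called without healthy mice 1 and 4 together (-0.15, limma adjusted p = 0.0818), and it was -0.058 in its dimmest bright probe set.

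Of 10 genes for cytochrome c, cytochrome c1 and ATP synthase associated proteins, 1 fell in the average and 0 rose: Hccs, which attaches haem to cytochrome c, with a change of -0.20 ± 0.041 (SE; limma adjusted p = 0.0166). Of 12 citric acid cycle genes, Dlst, a subunit of the oxoglutarate dehydrogenase complex, fell in the average with a change of -0.15 ± 0.039 (SE; limma adjusted p = 0.0417), and the mean of its probe sets gave -0.033. Of 22 genes of glycolysis and pyruvate entry, Pfkl, a phosphofructokinase, fell in the average with a change of -0.23 ± 0.048 (SE; limma adjusted p = 0.0181). Of 13 regulators of mitochondrial biogenesis, Pprc1, a coactivator related to PGC-1, fell in sensory cortex (-0.37 ± 0.082, SE, limma adjusted p = 0.0484) and in the average, at -0.32 ± 0.064 (SE; limma adjusted p = 0.0165). No gene of these 4 lists was called higher in EAE, and 0 were called in motor cortex in either direction. Among all genes 2.25% were called in motor cortex, 2.41% in sensory cortex and 7.87% in the average. Leaving out 1 mouse at a time ended the call of Dlst in 9 of 10 fits and that of Pprc1 in sensory cortex in 7. For the averages it ended that of Hccs and of Pprc1 without healthy mouse 3 or healthy mouse 4, and that of Pfkl without healthy mouse 2 or 3. All 4 averages lost their call without healthy mice 1 and 4 together. The medians for the average were -0.0091, -0.034, -0.018 and -0.036 in the same order. Between regions, 5 of the 22 glycolysis genes were called higher in motor cortex and 0 lower, beside 7.67% and 5.56% of all genes. Among them were Ldha by 0.17 and Hk1 by 0.11; the Hk1 call was lost without healthy mice 1 and 4 together (limma adjusted p = 0.0658). The Pfkp difference, called at 0.14, was -0.078 in its dimmest bright probe set. Of 26 listed names for mitochondrially encoded genes, 1 was measured under a single symbol, ND5, and it was not called.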

How the data were processed

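Per the labels' protocols, mice were perfused with buffer and then an RNA-preserving solution, cortex was dissected from 1 mm slices with an atlas, and 1 µg of RNA was labelled with biotin for Affymetrix arrays. The authors deposited log2 values per probe set. The submitters' processing notes name the tools RMA and Partek; their versions are not given in the sources used here. The RMA method corrects background, equalises array distributions and summarises probes, and it can compress differences at either end of the signal range.

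Of 45101 probe sets, 34958 had 1 gene symbol in the platform annotation, 932 had several and 9211 were not listed; those with 1 symbol were used, and 34754 matched a RefSeq GRCm38.p6 gene through Entrez identifiers, with 0 symbols changed. The brightest probe set stood for each gene, and no genes were filtered on signal. Two-sided tests were made with lmFit and eBayes of limma 3.58.1 (R 4.3.3), with cohort as a covariate for EAE against healthy within each region, for the mean of both arrays of a mouse and for motor minus sensory of each mouse. For motor against sensory cortex each mouse was a block. P-values were adjusted by Benjamini-Hochberg over all 18194 genes and called under 0.05; intervals are 95%. The fits were tested on simulated data.

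Arrays of 1 mouse share its label number, and their deviations from group means correlated at 0.163 to 0.587, except EAE mouse 3 at -0.0316. A number shared by an EAE and a healthy mouse joins no animals. The animals are the replicates, and their number limits the precision. The second processing day held 2 arrays, motor cortex of healthy mouse 4 and sensory cortex of healthy mouse 1, so it was tested by leaving out those arrays or, for the comparisons that use both regions, those mice.

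The members and gene lists were chosen with earlier results of these data known. Named members were, in each comparison, those called, or the 3 with the smallest p where fewer than 3 were called; the 2 with the smallest p in each complex for both regions; and a fixed set of core subunits and second isoforms. Genes named from the other lists were called ones. Members that head or end an interval, a motif count or a direction count were named after their values were seen. Alternatives were quantile normalization, other choices of probe set, leaving out each mouse or the second processing day, no cohort term, each cohort alone, a block by mouse number, and for the regions no block and each condition alone.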

Additional observations from a re-analysis of the deposited data

Results flagged for a closer look

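In 8 of 112 combinations of a named member and a group, 1 mouse lay apart from the rest by Dixon's criterion, where chance gives about 1 in 20. EAE mouse 2 was low for Uqcrfs1 in motor cortex, at 12.881 against 13.001 to 13.041 in the other EAE mice, and for Atp5g1 in sensory cortex, at 12.853 against 12.969 to 13.031. Sdha in sensory cortex was 13.29 in EAE mouse 5, against 13.147 to 13.20, and Atp5pb was 13.85 in EAE mouse 6, against 13.669 to 13.731. Healthy mouse 2 was low for Ndufv1 in sensory cortex, at 13.316, against 13.476 to 13.485.

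The other 3 are on the 2 arrays of the second processing day. In healthy mouse 4, motor cortex gave 14.149 for Cox5a, against 14.038 to 14.039, and 14.005 for Ndufa1, against 13.911 to 13.926. In healthy mouse 1, sensory cortex gave 10.982 for Cox6a2, against 10.727 to 10.766. Without these 2 mice, Cox6a2 was still called between regions. No named member was called for a difference of the EAE effect between motor and sensory cortex.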

How the results depend on the processing

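No member was called in EAE against healthy mice, in either region or their average, under quantile normalization, the alternative choices of probe set, no cohort term, either cohort alone or without the second processing day. Leaving out each mouse gave 0 to 1 called members in motor cortex and in the average, and 0 in sensory cortex; the 1 was Cox7a1 without EAE mouse 3. With the mouse number as a replicate block, which pairs no real animals here, 0 members were called. Some of these fits called few or no genes at all, by the counts in the next paragraph, so 0 members says little there. They include fits of a cohort alone, the average without the second processing day and the replicate block in sensory cortex. The regional count of 3 became 5 under quantile normalization, 6 with only bright probe sets, and 1 without the mice of the second processing day, with no replicate block or in EAE mice alone; it was 3 to 4 when each mouse was left out. Cox6a2 was called in all of these. The use of the dimmest bright probe set, chosen after seeing the data, turned Atp5pb in sensory cortex to -0.042 and Pfkp between regions to -0.078, and Ndufaf4 in sensory cortex was 0.0024 within cohort 1; the cause was not tested.

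Counts over all genes moved more. Leaving out 1 mouse gave 145 to 470 genes in motor cortex (410 with all), 19 to 1009 in sensory cortex (438) and 472 to 1813 for the average (1431). Each cohort alone gave 9 and 16, 0 and 141, and 0 and 574. Without the second processing day they were 194, 118 and 6, and with the replicate block 389, 5 and 919. Only bright probe sets gave 838 and the dimmest bright ones 677 in sensory cortex. Regional counts were 1531 without those mice, 1338 in healthy and 728 in EAE mice alone, beside 2408. The deposited signals near the top of the range, the small number of healthy mice and the lack of mock-injected controls limit what these values can show.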

Other observations

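Besides the brightest ones, 3 other probe sets of members were called in the regional comparison when all probe sets were tested together, while the brightest probe set of the same gene was not. With a second Cox6a2 probe set, 4 of the 89 member probe sets that are not the brightest were called, where 9.83% of all 34958 probe sets were. Ndufab1, the acyl carrier protein of complex I, gave 0.17 ± 0.050 (SE; limma adjusted p = 0.0450) in 1 of its 5 probe sets, and 0.034 in the brightest. Ndufs4, an accessory subunit of complex I, gave -0.12 ± 0.035 (SE; limma adjusted p = 0.0389) in 1 of 4, and -0.025 in the brightest. Uqcr10, a small subunit of complex III, gave -0.15 ± 0.043 (SE; limma adjusted p = 0.0368) in 1 of 3, and 0.047 in the brightest. These 3 were picked with their values in view. Of all 179 member probe sets, 0 were called in EAE against healthy mice in either region or their average, where 1.13%, 1.17% and 4.94% of all probe sets were; 6, 7 and 12 had an unadjusted p under 0.05.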
